A study of Bos taurus with 28 samples.

Results

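Of 24616 gene identifiers counted in steer muscle, 72 were lower in every energy-restricted steer 32 days after feed was restored, while their mean change in control steers was small. The set was selected on measured values. Counts were scaled between samples by median-of-ratios size factors (the normalised count) and moved to the scale log2(normalised count + 1). Of the 9267 genes with a mean normalised count of at least 20, 358 were lower at day 131 than at day 99 in 6 of 6 restricted steers, and 166 of these had a mean change of -0.8 or less. Among those 166 genes, 92 had a mean control change below -0.4, 2 had one above 0.4, and the 72 with a mean control change between these limits are the genes described here. They make up 0.777% of the 9267 genes. A list of 19 identifiers to be left out of the set was part of the rule, and 0 of them met its thresholds.

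The study followed compensatory growth, the fast gain of cattle whose feed has been restored after a lean period. Muscle was biopsied on study days 99 and 131 from male steers of a cross between Aberdeen Angus and Holstein Friesian, and poly(A)-selected RNA was sequenced in paired ends. Until day 99, 6 control steers received 7 kg of grass silage a day with concentrates freely available, and 6 restricted steers received silage freely available with 0.5 kg of concentrate a day. From day 99 all of them had the same mixed ration of 80% silage and 20% concentrate, so the control steers also changed diet between the biopsies. The labels name no drug or genetic modification and give no ages. The steers sequenced came from a trial of 24, with 12 on each diet. Each of the 4 groups (control or restricted, day 99 or day 131) holds 6 samples, and each of the 12 steers gave 1 sample per day.

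Skeletal muscle is the body's main protein store. When energy intake is low, muscle cells reduce protein synthesis, raise protein breakdown through the proteasome and lysosomes, and burn more fat. When feed is restored, insulin and growth factor signalling turn these programmes back towards protein accretion. The files list genes by Ensembl identifier with no symbols, and 0 of the 24616 identifiers matched the reference table. The 72 genes therefore could not be assigned to these programmes here, their products and sequences are not given, and the muscle origin of the samples was not checked against marker genes. A biopsy also holds fat, vessel, nerve and connective tissue cells, so for every gene below, fewer cells of a type and less RNA per cell cannot be told apart.

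Total counts per sample ranged from 3342314 to 24376288 (a sum of 3 libraries), and restricted samples at day 131 had between 4023531 and 7657350. In composition, 3 samples stood apart. Their TMM factors, which edgeR uses to correct for RNA composition, were 1.69 (control steer 3, day 99), 1.59 (control steer 5, day 131) and 1.37 (restricted steer 5, day 99), while the other 21 samples lay between 0.786 and 1.13. Counts, levels and correlations that rest on these samples are also given without them.

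The 72 genes spanned a wide range of counts, which are not per gene length and so do not rank the genes by RNA level. Their mean normalised counts ran from 20.9 to 7757 with a median of 78.7, below the median of 158 for all 9267 genes. None was at 0 in any sample, the lowest raw count was 2, and all 72 passed edgeR's filter on low counts. By construction all had a negative mean change in restricted steers, from -2.03 to -0.80 with a median of -0.98 (quartiles -1.26 and -0.87). The median control change was -0.22, with a range of -0.39 to 0.34, and 58 of the 72 means were below 0. The median over all 9267 genes was 0.00 in restricted steers and 0.02 in control steers. As edgeR log2 fold changes with TMM scaling, the control changes of the 72 genes had a median of -0.27 (range -0.66 to 0.24). By that measure 61 were below 0, and the median over the 11288 genes tested was -0.10. The limits of 0.4 thus hold on the scale of the rule only.

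**Figure D1:**
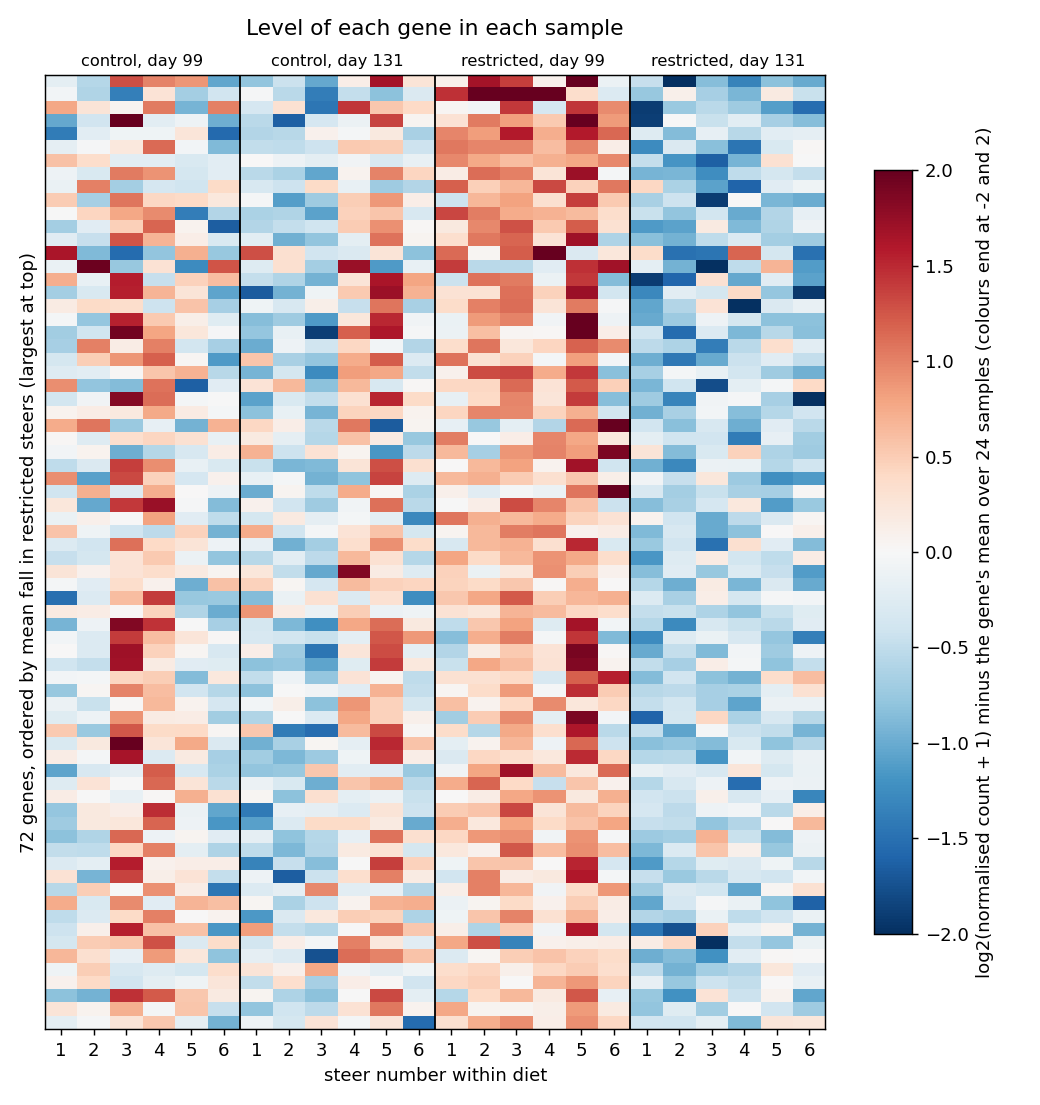
Level of each of the 72 genes (one line per gene, largest restricted fall at the top) in each of the 24 samples (columns, grouped by diet and day, numbered by steer), as log2(normalised count + 1) minus the gene's mean, with red above and blue below that mean. Restricted day 99 samples are mostly red and restricted day 131 samples mostly blue, as the selection requires, and control steer 3 at day 99 and control steer 5 at day 131 are also red for many genes.

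The order of the group means was nearly the same for most of the set. Restricted steers at day 99 had the highest of the 4 group means for 65 genes, and restricted steers at day 131 had the lowest for 65. Both held for 58 genes. Of the exceptions, 6 genes were highest in the control day 99 group and 1 in the control day 131 group, and 6 were lowest in the control day 131 group and 1 in the control day 99 group. The share of all counts taken by the 72 genes was 0.453% ± 0.170 (SD, n = 6) in the restricted day 99 samples and 0.169% ± 0.0514 in the restricted day 131 samples. It was 0.370% ± 0.127 in the control day 99 samples and 0.292% ± 0.154 in the control day 131 samples. The control groups overlapped each other and both restricted groups in this share, whereas the lowest restricted day 99 sample (0.323%) lay above the highest restricted day 131 sample (0.264%). The restricted samples chose the set, so their separation in this share describes the selection. The share is weighted by count, and ENSBTAG00000008401 had the highest mean normalised count (7757, against a median of 78.7 over the set). The share therefore follows that gene more than most of the 72, and all 4 groups overlapped for it. Without the 3 samples of high TMM factor the share was 0.385% ± 0.0400 (SD, n = 5) in the restricted day 99 group, 0.345% ± 0.124 in the control day 99 group and 0.260% ± 0.150 in the control day 131 group.

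The lowest restricted day 99 sample lay above the highest restricted day 131 sample for 22 of the 72 genes. The same separation held for 50 of the 9267 genes, which is 0.54%. Because the selection used this contrast, the count describes how the set was made. With edgeR's quasi-likelihood test (Benjamini-Hochberg adjustment over 11288 genes, threshold 0.05), 6 of the 72 genes were among the genes called lower at day 131 in restricted steers, which were 0.106% of those tested (12 genes). The number of the 72 called moved with the tool and with single samples, as did the number over all genes. DESeq2 called 27 of the 72 among 88 genes lower, and edgeR on the restricted samples alone called 15 among 39. It was 3 of 7 without restricted steer 2 or 3 at day 99, and 3 of 5 without restricted steer 5 at day 99 or restricted steer 4 at day 131. It was 10 of 20 without control steer 3 at day 99, 13 of 46 without restricted steer 6 at day 99 and 15 of 43 without control steer 5 at day 131. With all 3 samples of high TMM factor left out it was 11 of 18. These 6 genes are described first, as normalised counts and then as edgeR log2 fold changes with standard errors.

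ENSBTAG00000025848 changed evenly across steers. In restricted steers its lowest, median and highest normalised counts were 229, 290 and 416 at day 99 and 74.8, 117 and 122 at day 131. Control steers had 46.0, 124 and 163 at day 99 and 87.5, 114 and 158 at day 131. Every restricted sample at day 99 thus lay above every other sample of the study, and the restricted samples at day 131 lay within the control range of that day except for the lowest. The log2 fold change from day 99 to day 131 was -1.55 ± 0.28 (SE) in restricted steers and 0.07 ± 0.28 in control steers. Across the 6 restricted steers the change ran from -1.80 to -1.25, an SD of 0.26 against a median SD of 0.67 over the 72 genes.

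ENSBTAG00000021272 had the second largest mean change, and the steers were divided. Restricted steers 1 to 4 had normalised counts of 93.3, 197, 189 and 168 at day 99, and steers 5 and 6 had 43.2 and 27.6. Control steers at day 99 ranged from 12.4 to 40.6 with a median of 23.7. Only restricted steer 6 lay inside the control range at day 99. At day 131 restricted steers had 17.4, 22.5 and 38.2 (lowest, median, highest) and control steers 12.2, 23.2 and 32.8, so the diets overlapped. The log2 fold change was -2.24 ± 0.42 (SE) in restricted steers and -0.25 ± 0.42 in control steers, and the restricted days overlapped because of the day 99 value of steer 6.

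ENSBTAG00000010954, with the largest mean change, had normalised counts of 97.4, 197 and 558 (lowest, median, highest) in restricted steers at day 99 and 22.8, 55.3 and 77.0 at day 131. Control steers had 51.1, 144 and 260 at day 99 and 51.4, 97.2 and 339 at day 131. The restricted day 99 samples overlapped the controls on both days, and the low side of the change lay at day 131, where 2 restricted samples were below the lowest control. The log2 fold change was -2.27 ± 0.49 (SE). Its change in single restricted steers ran from -3.83 to -0.56, and in single control steers from -2.32 to 1.29.

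ENSBTAG00000001576 was high and narrow in restricted steers at day 99, with normalised counts of 687, 761 and 872 (lowest, median, highest). Control steers had 362, 387 and 671 at day 99 and 361, 410 and 452 at day 131, all below the lowest restricted day 99 sample. At day 131 restricted steers spread from 143 to 555 with a median of 277, and 4 of the 6 were below the lowest control sample. The log2 fold change was -1.32 ± 0.26 (SE) in restricted steers. No control steer changed by more than 0.57 in size.

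ENSBTAG00000010610 and ENSBTAG00000009417 had the highest counts among the 6. ENSBTAG00000010610 had normalised counts of 1956, 3520 and 3716 (lowest, median, highest) in restricted steers at day 99 and 651, 1231 and 1825 at day 131. Its control samples ran from 975 to 3946 at day 99 and from 1255 to 2565 at day 131, so the diets overlapped on both days. ENSBTAG00000009417 had 1186, 1955 and 3998 in restricted steers at day 99 and 516, 752 and 953 at day 131, with controls from 593 to 2499 over both days. The restricted days did not overlap for either gene. The log2 fold changes were -1.42 ± 0.31 and -1.55 ± 0.35 (SE). With the steer as a replicate block the set again held 6 called genes, but ENSBTAG00000010954 and ENSBTAG00000009417 then had adjusted p-values of 0.0599 and 0.0818 in edgeR, and ENSBTAG00000020355, at 0.0504 without the block, had 0.0470. ENSBTAG00000000392 went from 0.110 to 0.0225.

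**Figure D2:**
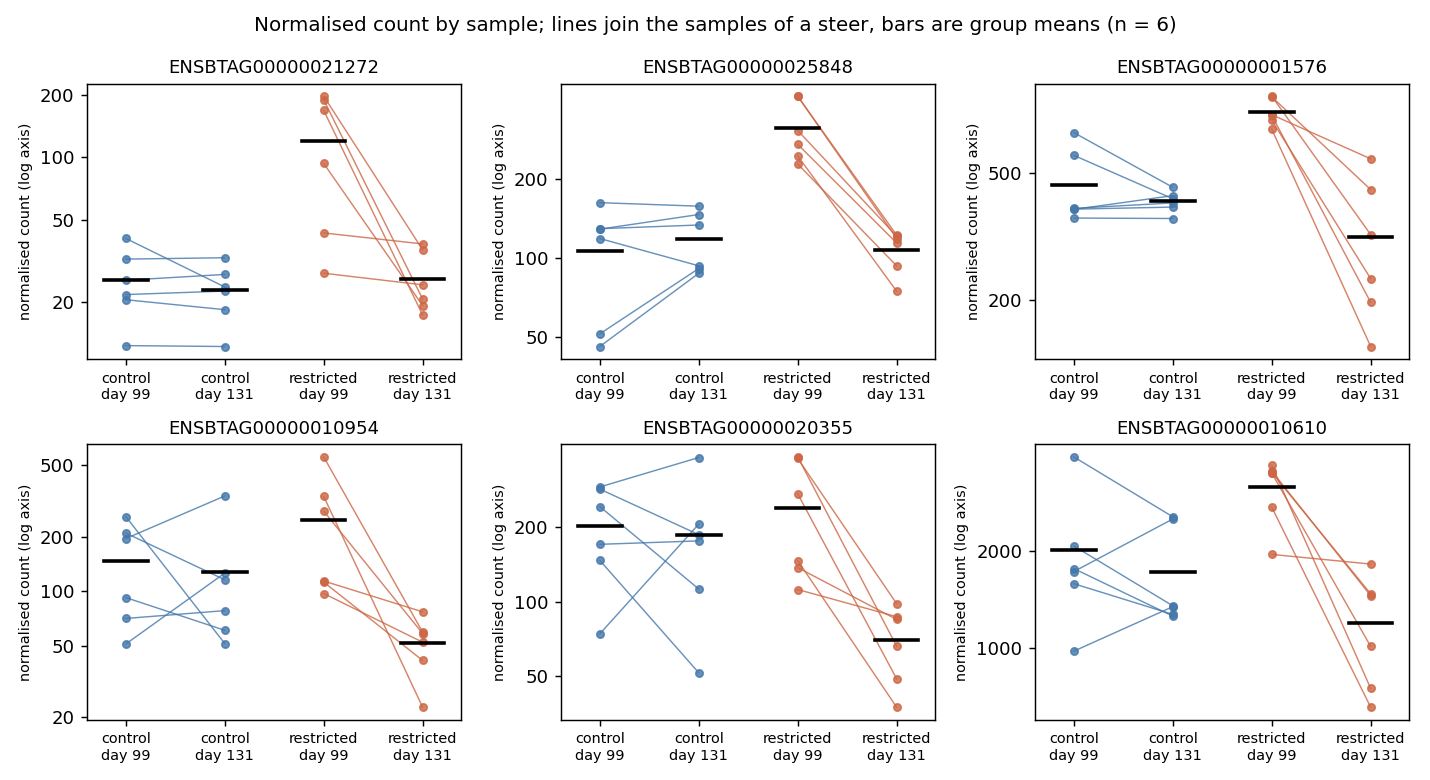
Normalised count (log axis) of 6 of the genes in each sample, with lines joining the 2 samples of a steer and black bars at group means (n = 6). The upper 3 genes stood highest in restricted steers at day 99 and reached or crossed the control level at day 131, while ENSBTAG00000010954 and ENSBTAG00000020355 in the lower panels overlapped the controls at day 99 and stood low in restricted steers at day 131.

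Some other genes of the set show its range. ENSBTAG00000008401 had the highest mean normalised count, 7757. In restricted steers it had 4017, 10145 and 18710 (lowest, median, highest) at day 99 and 1167, 3559 and 9317 at day 131, and in control steers 2442 to 22629 at day 99 and 2642 to 19326 at day 131. All 4 groups overlapped. ENSBTAG00000039335 was chosen for its mean control change of 0.33, near the upper limit of the rule. Its restricted samples ran from 322 to 1835 at day 99 and from 140 to 882 at day 131, and its control samples from 135 to 1221 and from 223 to 962. Again all groups overlapped. ENSBTAG00000046307 had 61.5, 180 and 367 in restricted steers at day 99 and 53.6, 71.4 and 136 at day 131, against 49.4 to 110 and 43.4 to 159 in control steers.

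Near the limit of -0.8 the genes just inside had mean restricted changes of -0.808, -0.806 and -0.805, and those just outside -0.796, -0.790 and -0.787. Near the control limit of 0.4 the sizes were 0.382, 0.382 and 0.391 inside and 0.404, 0.418 and 0.422 outside. Membership depended on single steers. Without restricted steer 6, whose median change was the smallest, the rule gave 341 genes, and without restricted steer 4 it gave 143. These included 65 and 67 of the 72. Without restricted steer 1, 2, 3 or 5 the rule gave 100, 72, 83 and 64 genes. Leaving out a restricted steer also loosens the rule, which then asks for a lower value in fewer steers. Without control steer 3 the rule gave 128 genes, and without control steer 5 it gave 40.

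The restricted steers differed in how far the set moved. The median change of the 72 genes in restricted steers 1 to 6 was -0.88, -1.11, -1.13, -0.76, -1.32 and -0.54. Steer 5, whose day 99 sample had the high TMM factor, held the largest change for 25 of the 72 genes. In steer 6, 26 of the 72 changed by -0.8 or less, against 55 in steer 5. The spread of all genes differed too: 9.58% of the 9267 genes changed that far in steer 6 and 31.4% in steer 5.

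The rule limited the control mean and not each control steer, and the control steers moved in opposite directions. The median change of the 72 genes in control steers 1 to 6 was -0.20, -0.37, -1.15, -0.22, 0.51 and 0.15. In control steer 3, 43 of the 72 were lower at day 131 by 0.8 or more (59.7%, against 36.6% of the 9267 genes). In control steer 5, 28 were higher by 0.8 or more (38.9%, against 18.4%). For 54 of the 72 genes control steer 3 was lower and control steer 5 higher, which is 75% against 40.4% of the 9267. No gene of the set was lower in 6 of 6 control steers, and none was higher in 6 of 6. Few of all genes were lower in 6 of 6 (76 of the 9267), and the rule limited the control mean. These counts are a description.

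For 37 of the 72 genes the small control mean contained both a fall and a rise of 0.8 or more (51.4%, against 39.9% of the 9267). The median SD of the control change was 0.86 in the set and 0.85 over the 9267 genes. At least 1 control steer was lower by 0.8 or more for 54 of the 72 genes (75%, against 60.8% of the 9267). All 6 control steers stayed within 0.8 for 11 genes (15.3%, against 13.1%), among them ENSBTAG00000021272, ENSBTAG00000001576 and ENSBTAG00000010610. The median mean control change was -0.38 without steer 5, with 40 genes inside the limits of 0.4, and 0.03 without steer 3, with 67 inside. Without both it was -0.17, with 59 inside. The samples of these 2 steers with high TMM factors were the ones in which the set was high, and the part of RNA composition in these changes was not tested. The genes are therefore not described here as falling in restricted steers alone: most control means were below 0 as well, the median in control steer 3 was as low as in restricted steers, and the interaction given below was not called for any of them.

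**Figure D3:**
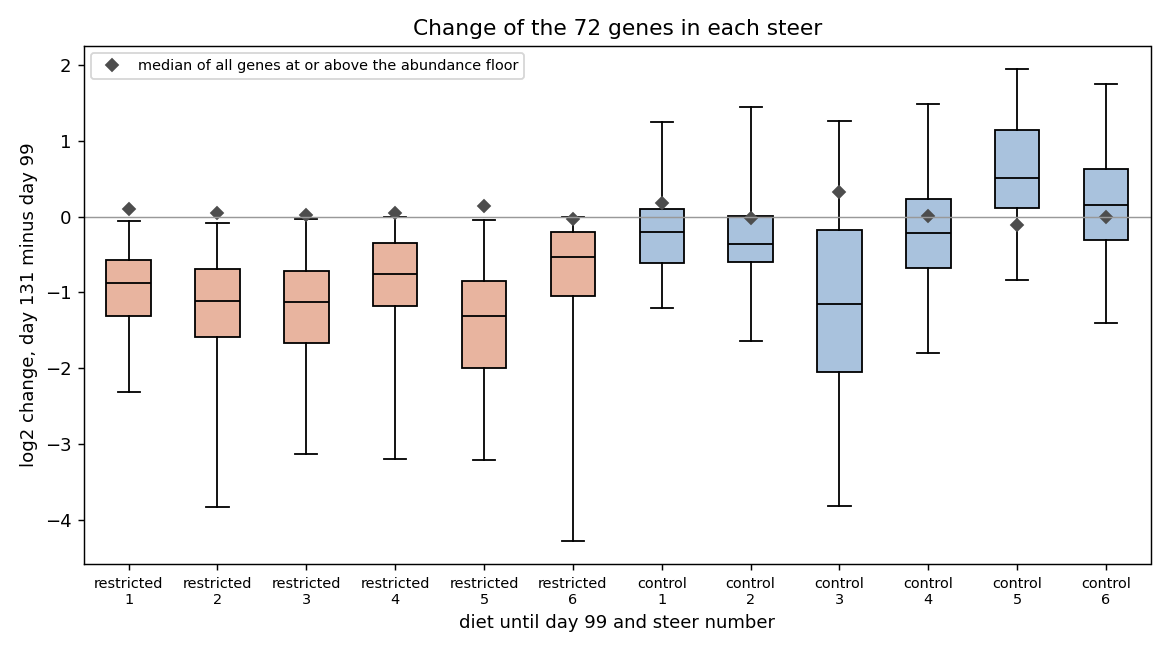
Change of the 72 genes from day 99 to day 131 in each steer on the log2 scale (box, quartiles with the median; whiskers, lowest and highest gene; diamonds, median of the 9267 genes at or above the abundance floor). All restricted boxes lie below 0 because the rule requires it, control steer 3 has a median of -1.15 and control steer 5 one of 0.51.

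ENSBTAG00000013598 was the extreme of this kind. Its change in single control steers was -3.81 in steer 3, and the mean over the 6 control steers was -0.31. Its normalised counts in control steers ran from 12.5 to 81.9 at day 99 and from 4.89 to 65.9 at day 131, and in restricted steers from 19.0 to 86.3 and from 6.50 to 16.9. The highest value of 3 of these 4 groups belonged to a sample with a high TMM factor. Without these samples the highest values were 36.7 and 48.6 in control steers and 32.1 in restricted steers at day 99.

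In edgeR none of the 72 genes was called between days in control steers (0% of the 11288 genes at an adjusted p under 0.05). At an unadjusted p under 0.05 the count was 0 of 72, against 3.89% of all genes, and DESeq2 called 0. The difference between the changes of the 2 diets, a combination of the contrasts that chose the set, had a median of -0.86 (range -2.02 to -0.30) against -0.03 over all genes. None of the 72 was called for this interaction (0% of all genes, smallest adjusted p among the 72 of 0.757). At an unadjusted p under 0.05, 20 of 72 had a lower value, against 0.691% of all genes, and DESeq2 called 2 genes, of which 0 were in the set. These counts share their samples with the rule and are given as a description.

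The genes differed in where the change lay relative to the controls. At day 99 the restricted against control log2 fold change had a median of 0.41 over the 72 genes (-0.02 over all genes), and 62 were above 0. At day 131 the median was -0.54 (-0.02 over all genes), and 65 were below 0. Both differences share the restricted samples that chose the set. None of the 72 was called at day 99 (0% of all genes), where 9 were higher at an unadjusted p under 0.05 against 1.46% of all genes. None was called at day 131 (0% of all genes), where 15 were lower at that level against 0.859%. DESeq2 called 2 of the 72 among 19 genes at day 99 and 0 of the 72 among 2 genes at day 131.

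The position of each gene can be put as the share of its restricted change that lay above the mean of both control groups. This share had a median of 48.4% over the 72 genes, with quartiles of 33.9% and 67.4%. For 12 genes over 75% lay above the control mean, so that they were high at day 99 and near the controls at day 131. For 15 genes it was under 25%, so that they were near the controls at day 99 and low at day 131. The other 45 lay between, higher than the controls first and lower afterwards.

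ENSBTAG00000021272 (106%), ENSBTAG00000025848 (101%) and ENSBTAG00000046307 (93.9%) were of the first kind. Their log2 fold changes against control were 2.21 ± 0.41, 1.52 ± 0.28 and 1.15 ± 0.34 (SE) at day 99 and 0.23 ± 0.43, -0.10 ± 0.28 and -0.08 ± 0.34 at day 131. The adjusted p at day 99 was 0.0551 in edgeR for ENSBTAG00000021272 and for ENSBTAG00000025848. With the steer as a replicate block in limma, ENSBTAG00000025848 passed the threshold at 0.0242. Both passed it with median-of-ratios size factors (0.0400 each) and in DESeq2. Both also passed without control steer 4 at day 99 or without control steer 3 or 5 at day 131, and 1 gene of the set passed without control steer 5 or restricted steer 5 or 6 at day 99. ENSBTAG00000020355 (19.2%) was of the other kind. Its restricted samples had normalised counts of 112, 210 and 386 (lowest, median, highest) at day 99, 4 of them inside the control range of 73.9 to 292, and 37.2, 75.2 and 97.9 at day 131, where 5 of the 6 control samples were higher than all of them. Its log2 fold change against control was 0.21 ± 0.40 (SE) at day 99 and -1.40 ± 0.41 at day 131. ENSBTAG00000010954 (40.6%) lay on both sides, with 0.73 ± 0.46 and -1.29 ± 0.48.

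**Figure D4:**
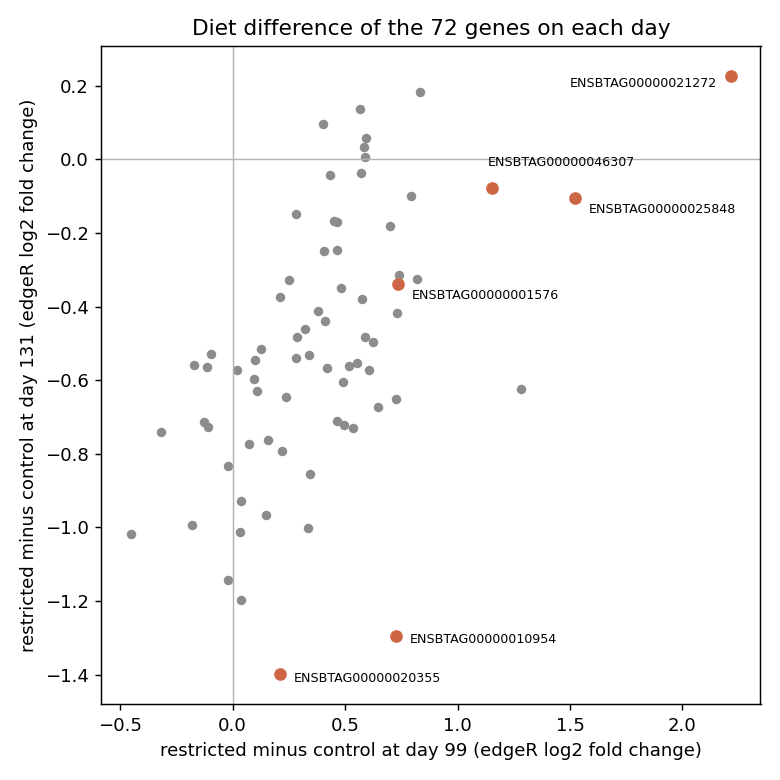
Restricted against control log2 fold change of each of the 72 genes at day 99 (horizontal axis) and at day 131 (vertical axis), from edgeR, with 6 genes named. Most points lie in the lower right, above the controls at day 99 and below them at day 131, with ENSBTAG00000021272 at the right (2.21 and 0.23) and ENSBTAG00000020355 at the bottom (0.21 and -1.40).

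The diet difference averaged over both days is the combination of the group means that the rule did not limit, so it was tested. It is independent of the rule only where a gene varies equally on both days. The median SD of the 72 genes over steers was 0.57 (day 99) and 0.47 (day 131) in restricted samples. In control samples it was 0.67 and 0.66. The counts here are therefore not wholly separate from the rule. For ENSBTAG00000021272 the normalised counts in restricted steers had an SD of 75.1 at day 99 and 8.89 at day 131. Its diet difference was 2.21 at day 99 and 0.23 at day 131. The averaged difference of that gene thus rests on the day 99 samples that the rule used. None of the 72 genes was called in edgeR (0.00886% of the 11288 genes were, 1 gene), and the smallest adjusted p among the 72 was 0.313, for ENSBTAG00000021272, at a log2 fold change of 1.22 ± 0.29 (SE). The edgeR fit took the 2 samples of a steer as separate. With the steer as a replicate block in limma, 0 genes were called. At an unadjusted p under 0.05 in edgeR without the block, the count was 7 of 72 (9.72%), against 3.89% of all genes. Of these, 4 were higher in restricted steers (1.87% of all genes were): ENSBTAG00000021272, ENSBTAG00000025848 (0.71 ± 0.20), ENSBTAG00000046307 (0.54 ± 0.24) and ENSBTAG00000001648 (0.51 ± 0.23). The other 3 were lower (2.02% of all genes were): ENSBTAG00000012090 (-0.73 ± 0.30), ENSBTAG00000020355 (-0.59 ± 0.28) and ENSBTAG00000014786 (-0.53 ± 0.23). The median over the 72 was -0.06, close to the -0.03 of all genes. DESeq2 called 9 genes, of which 1 was in the set, ENSBTAG00000021272, with an adjusted p of 0.0496.

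The level of the set tended to be higher in samples with higher TMM factors, in control samples as well. The part of RNA composition in this was not tested. The median over the 72 genes of the log2 level minus each gene's mean was 0.51 ± 0.33 (SD, n = 6) in the restricted day 99 samples and -0.48 ± 0.13 in the restricted day 131 samples. It was 0.07 ± 0.34 in the control day 99 samples and -0.11 ± 0.43 in the control day 131 samples. Restricted day 99 samples ran from 0.15 to 1.02 and restricted day 131 samples from -0.66 to -0.35, so the 2 groups did not overlap. These samples chose the set, so their separation describes the selection. Control samples ran from -0.56 to 0.56 over both days and overlapped both restricted groups. The highest restricted day 99 sample was steer 5, with a TMM factor of 1.37, and the highest control day 131 sample was steer 5, with 1.59. The second highest control day 99 sample was steer 3, with 1.69, and the highest was steer 4, with 1.12. Without the 3 samples the level was 0.41 ± 0.25 (SD, n = 5) in the restricted day 99 samples, 0.00 ± 0.32 (n = 5) in the control day 99 samples and -0.24 ± 0.31 (n = 5) in the control day 131 samples.

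**Figure D5:**
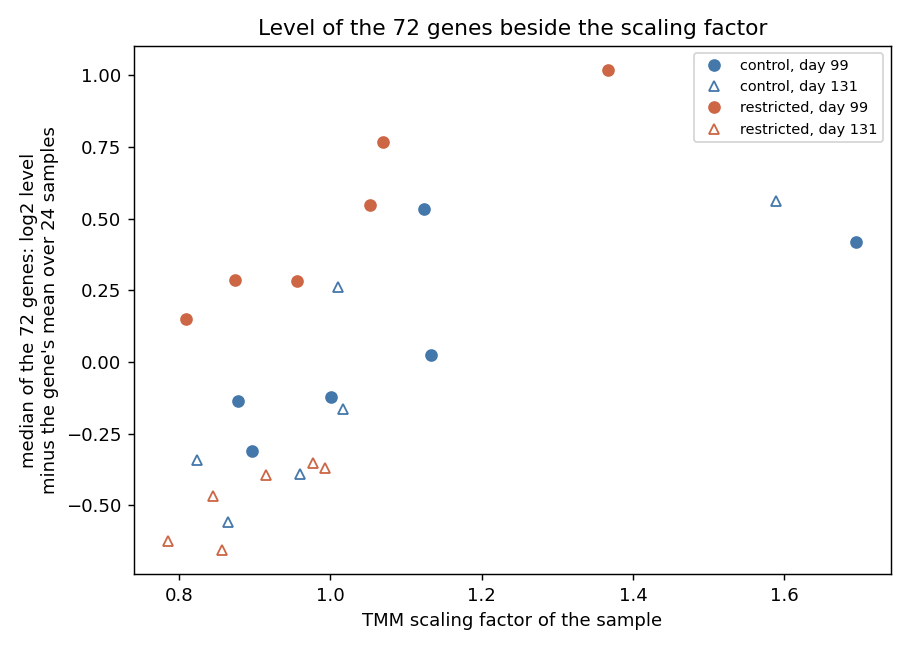
Median level of the 72 genes in each of the 24 samples (vertical axis, log2 level minus each gene's mean) against the sample's TMM factor (horizontal axis), with diet by colour and day by symbol. Restricted day 99 samples lie above the other groups' samples of similar factor, and within groups the samples with higher factors tend to lie higher.

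Beyond the group means, many genes of the set were positively correlated. After each group's mean was removed, the median correlation over pairs of the 72 genes was 0.253 across the 24 samples, against 0.003 over pairs of the 9267 genes. It was 0.345 across the 12 control samples (0.005 for all genes) and 0.155 across the 12 restricted samples (0.002). The share of pairs over 0.5 was 25.5% in the set and 23.9% in all genes. In control samples the share was higher in the set (37.1% against 28.5%), and in restricted samples it was lower (20.3% against 22.6%). All pairs share the same libraries and scaling. The rule chose genes with the same direction of change in the same restricted samples, while the 9267 genes changed in both directions. The correlations are therefore not independent of the rule and are given as a description. Without the 3 samples that stood apart the median was 0.188 over 21 samples, 0.273 over 10 control samples and 0.117 over 11 restricted samples, with shares over 0.5 of 16.0% in the set and 15.6% in all genes over the 21. The median correlation of a gene with the others was highest at 0.573 and was negative for 9 genes, lowest in ENSBTAG00000046307 at -0.316. ENSBTAG00000009417 (0.505) and ENSBTAG00000010954 (0.486) were near the upper end, and ENSBTAG00000001576 (-0.101) and ENSBTAG00000021272 (-0.0211) were among the 9.

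The spread between steers also differed by group. The median SD of the 72 genes over steers on the log2 scale was 0.67 and 0.66 in control samples (day 99, then day 131) and 0.57 and 0.47 in restricted samples. Over the 9267 genes it was 0.53, 0.63, 0.56 and 0.41. Without the 3 samples that stood apart the set had 0.55, 0.57, 0.47 and 0.47 and the 9267 genes 0.41, 0.46, 0.49 and 0.41.

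The names of the count files carry 4 run dates, which the labels do not describe and which were taken here as 4 sequencing runs. Within a run the median difference between restricted samples of the 2 days was -1.26 in run 2 (72 of 72 lower), -1.24 in run 3 (71 of 72) and -0.79 in run 4 (72 of 72). Run 1 held no restricted day 131 sample. The restricted samples chose the set, so lower values at day 131 within runs were largely built in by the rule. These counts are a description. In control samples the same difference was -0.27, -0.79, -0.59 and 0.85 in runs 1 to 4, and the values of runs 3 and 4 rest on the samples of control steers 3 and 5 with high TMM factors. Without these 2 samples they were -0.28 and 0.55, and without restricted steer 5 at day 99 the restricted difference in run 2 was -0.76 (68 of 72). No steer had both samples in 1 run, so each within-run value compares 1 or 2 samples a group from different steers and has no test. Within a steer the change of day and the change of run cannot be told apart. With run as a covariate, edgeR called 3 of the 72 genes among 7 called lower in restricted steers (0.062% of the genes tested).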

How the data were processed

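The authors deposited raw read counts per Ensembl gene for 28 libraries. Per the submitters' processing notes, their tools included CASAVA 1.4, Bowtie, SAMtools and HTSeq, with genome build UMD3.1. Annotation release, strand setting and filters were not given in the sources used, so overlapping, antisense or near-identical genes can share or lose reads. The 7 libraries of 3 samples were summed, giving 24 samples from 12 steers. Libraries of one sample were within sampling noise of each other (chi-square per degree of freedom 0.525 to 0.807 over genes with at least 10 counts). Values below 1 are closer than independent counts give, so the libraries may share reads and the summed totals may overstate depth. With the first library alone the rule gave 69 genes, 66 of them shared.

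The genes and lists were chosen with earlier results of these data known. The rule used median-of-ratios size factors and log2(count + 1). Python 3.11.15 (numpy 2.4.6, scipy 1.17.1, matplotlib 3.10.9) applied it. Tests used R 4.3.3 with edgeR 4.0.16: filterByExpr (minimum count 10, 11288 genes), TMM, robust quasi-likelihood fits of all 4 groups and two-sided tests adjusted by Benjamini-Hochberg (threshold 0.05). Standard errors were taken as |log2 fold change| / √F. The scripts were tested on simulated counts. Alternatives were DESeq2 1.42.0, median-of-ratios factors, no filter, only the groups compared, run (the date in a file's name) as a covariate, each sample left out, the steer as a replicate block (within-diet contrasts in edgeR, others in limma 3.58.1 voom), and other limits in the rule. Leaving out the samples with TMM factors over 1.3, and limiting every control steer, were added after seeing the data.

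The labels identify the steer, so its 2 samples are paired. Across genes, r between a steer's deviations from the group means was over 0.1 in 8 of 12 steers (median 0.156). Steers are the replicates, and each gave 1 sample a day. The main edgeR fits used group means without the steer, and only the fits with the replicate block took the pairing into account.

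The naming rule needed symbols (largest changes, highest counts, smallest and largest diet differences, listed genes) and allowed 2 genes without one, those of largest mean fall. The other genes were named after their values were seen. The 38 gene lists fixed by symbol, cell type markers included, were not run, because no identifier matched a symbol.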

Additional observations from a re-analysis of the deposited data

Results flagged for a closer look

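ENSBTAG00000013598 had 1 value far from the others of its group: 86.3 normalised counts in restricted steer 5 at day 99, with the nearest other sample at 32.1. On the log2 scale this gap was 0.660 of the group's range, above the limit of 0.625 for 6 samples. The sample is 1 of the 3 with a high TMM factor (1.37). In all, 48 groups of 6 values were examined in this way (11 genes and the median level of the set, in 4 groups), and chance flags about 1 in 20 such groups.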

How the results depend on the processing

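By edgeR log2 fold change, a measure unlike the rule's mean change (median -0.98), the 72 genes had a median of -1.08 in restricted steers. This median log2 fold change stayed between -1.19 and -0.96 over 31 alternatives. The genes were chosen for this change in the same samples, so its sign was largely fixed by the rule. The number of genes selected was 44 with a floor of 50, 34 with a mean restricted change of at most -1, 26 with a control limit of 0.2 and 11 with every control steer within 0.8. Without 1 steer it ran from 40 to 341, and leaving out a restricted steer also loosens the rule. Without control steers 3 and 5 and restricted steer 5 it was 66, 41 of them shared, and with TMM scaling it was 59, 53 shared.

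For day 131 against day 99 in restricted steers, edgeR called 43 genes, of which 6 belong to the set. The counts were 256 and 27 in DESeq2, 66 and 11 without the 3 samples of high TMM factor, and 92 and 15 with only the groups compared. They were 44 and 10 with no filter on low counts (17 of the 44 lower, 0.08% of the genes tested) and 32 and 3 with run as a covariate. Without 1 sample the counts ran from 21 to 153 genes and from 3 to 15 of the set, and with the steer as a replicate block they were 62 and 6. DESeq2 called 2 genes for the interaction, 19 at day 99 (2 of the set), 2 at day 131 and 9 for the mean of both days (1 of the set). At day 99 the median-of-ratios factors gave 2 genes, both of the set, and the replicate block gave 1, of the set. The replicate block gave 0 for the mean of both days. Without 1 sample, the interaction had 0 to 1 genes (1 without control steer 2 at day 131), day 99 had 0 to 5 (0 to 2 of the set) and the mean of both days had 1 to 2 (2 without restricted steer 2 or 4 at day 131 or restricted steer 1 at day 99). The block changed no call in the set other than those given with the results. The cause of these shifts was not tested.

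Over 1077 refits of the named genes 7 changed sign, and none of the 341 for the restricted change did. The rule required a lower value in every restricted steer, so the sign of the restricted change was largely fixed in advance. For the mean of both days ENSBTAG00000010610 was -0.0160 without control steer 6 at day 99 and -0.0203 without restricted steer 6 at day 131 (-0.0203 to 0.228 with 1 sample left out). ENSBTAG00000009417 was 0.0258 without the 3 samples of high TMM factor and 0.0380 without control steer 5 at day 131 (-0.217 to 0.0380 with 1 left out). ENSBTAG00000020355 at day 99 was -0.0045 without those 3 samples. ENSBTAG00000046307 at day 131 was 0.0986 without control steer 1 and 0.0029 without restricted steer 2 on that day (-0.307 to 0.0986 with 1 left out). Depth limits the rarer genes of the set, whose lowest raw count was 2.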
